A study of Mus musculus with 4 samples.

Results

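The serpin genes are the protein-coding genes of the mouse autosomes whose symbols begin with Serpin. Of 20558 autosomal protein-coding genes, 62 met this rule. By the letter that gives the clade, 23 belonged to clade a, 28 to clade b and 11 to clades c to i. The symbols alone made a gene a member, and no measured value entered that rule. The family itself was chosen with earlier results of these data known.

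H3K9me3, trimethylation of lysine 9 on histone H3, was profiled by chromatin immunoprecipitation and sequencing in mouse CD8+ T cells of C57BL/6 background. The cells were kept in culture for 3 days with IL-2 and antibodies to CD3 and CD28. Both groups shared this background and culture and differed in genotype, wild-type (WT) in one and Suv39h1-KO (KO), lacking the histone methyltransferase Suv39h1, in the other. Each genotype had 1 H3K9me3 library, for which the authors deposited a list of islands, stretches of the genome enriched in reads. How the knockout was made, and how many animals gave the cells, is not given in the sources used here. With 1 library per genotype there was no replicate and no test, and every value below describes these libraries.

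Serpins are a family of proteins with a shared fold, most of which trap a protease by offering it an exposed loop as bait. Clade a members are mostly secreted by the liver into plasma, such as the elastase inhibitor alpha-1-antitrypsin (Serpina1 genes). Clade b members mostly stay inside cells, where several protect the cell from its own proteases. Serpinb9, which inhibits granzyme B, does so in cytotoxic T cells. Many mouse serpins arose by tandem duplication and lie in clusters. H3K9me3 is a mark of silent chromatin and is known for covering repeats and some tandem gene families.

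The WT list held 12371 islands and the KO list 25424, with 5547695 and 10020253 reads. Islands covered 5.70% of the autosomes in WT and 10.4% in KO. Neither list is scaled to library depth, and a gene without a called island may still carry the mark. The cell type could not be checked from expression, which was not measured. Of 8 T cell marker genes (Cd3e, Cd3d, Cd3g, Cd8a, Cd8b1, Lck, Cd2 and Thy1), 0 had an island in either library. The shares over all genes were 14.8% in WT and 14.5% in KO. So few genes say little about the cells.

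The region of a gene was taken as the gene with 2 kb on each side, and cover of 1 bp was enough to call an island there. By this rule the WT list had an island at 12 of the 62 serpin genes, and the KO list also at 12. These are 19.4% of the serpins in each library, beside the 14.8% and 14.5% of all autosomal protein-coding genes. Equal numbers did not mean the same genes. An island was listed in WT alone at 8 serpins, in KO alone at 8, in both at 4 and in neither at 42. The shares over all genes were 6.77% in WT alone, 6.52% in KO alone, 8.03% in both and 78.7% in neither. The counts follow the island list and the rule. They were 7 in WT and 6 in KO among the denser islands, those with more reads per kb than the median of their list, 6 in KO once that list was reduced to the WT number by reads, and 4 and 1 with 50% of the region covered. That last rule was met by 2.75% of all genes in WT and 3.41% in KO. For the denser islands and the reduced list the shares over all genes were not computed. Shorter lists can lower the count of any gene set, so these falls are not a trait of the serpins. Most serpins have short regions, with a median of 15.1 kb and a range of 9.32 to 89.0 kb. Of the 52 serpins with regions of 10 to 30 kb, 7 were covered by a WT island and 8 by a KO island (13.5% and 15.4%). All genes of that length had shares of 7.73% and 5.90%. Neighbouring members can share islands or lie in 1 domain, so the members are not independent of each other.

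The clades differed in these counts. Clade a had an island at 0 of 23 genes in WT and at 1 in KO. Clade b had one at 8 of 28 genes in WT and 9 in KO, and clades c to i at 4 of 11 in WT and 2 in KO. The shares over all genes were 14.8% in WT and 14.5% in KO, and 7.73% and 5.90% for regions of 10 to 30 kb. Median regions measured 13.7 kb in clade a, 18.5 kb in clade b and 16.6 kb in clades c to i. These counts are small, and whether clade a falls below the share for its region length was not tested. Summed over members, clade b carried 66.5 kb of WT cover and 42.7 kb of KO cover. The sum was 27.7 and 10.1 kb for clades c to i, and 0 and 3.99 kb for clade a. Members joined by gaps of at most 500 kb formed 5 clusters with 55 genes, and the other 7 genes lay singly. Clade a was identical with the cluster on chromosome 12, while clade b was split between chromosomes 1 (12 genes) and 13 (16 genes).

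**Figure D1:**
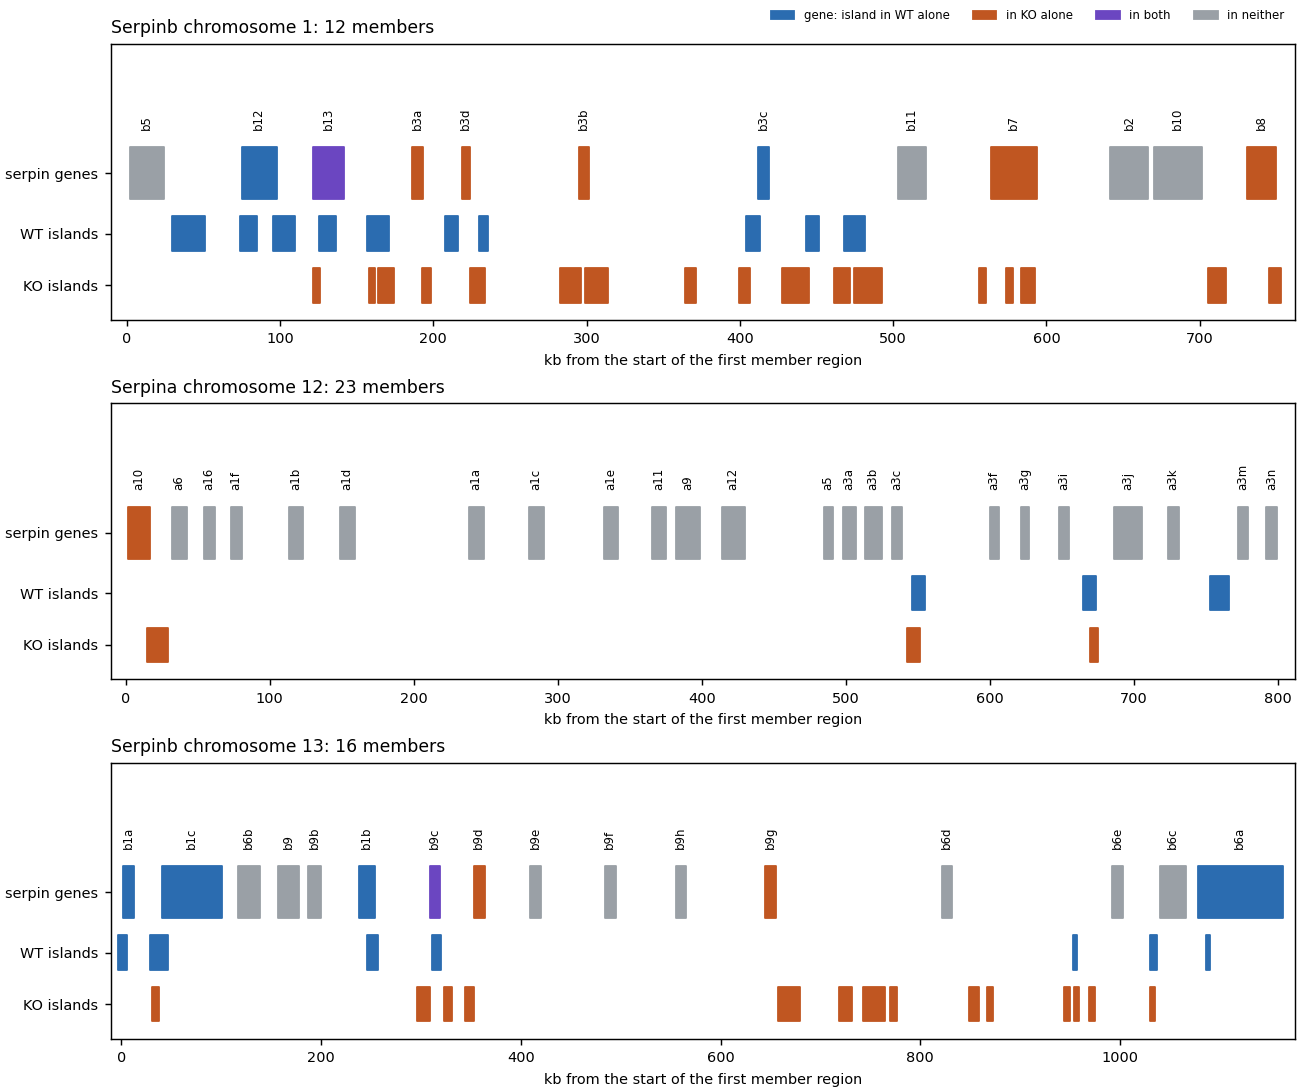
Maps of the 3 large serpin clusters, with the distance in kb from the start of the first member region on the horizontal axis. Boxes in the upper row are genes, coloured by the library in which their region has an island, with the prefix Serpin left out of the names, and the rows under them show the WT and KO islands. On chromosome 12 nearly all serpin genes are free of islands, and on chromosome 13 KO islands lie mostly between serpin genes.

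On chromosome 1 the libraries differed in which genes lay under islands. The span from Serpinb5 to Serpinb8 (chr1:106859175-107610978, mm10) measured 752 kb and held no other protein-coding gene. Islands covered 15.6% of it in WT and 21.4% in KO. The 1 Mb before the span had 3.95% in WT and 0.55% in KO, and the 1 Mb after it 6.95% and 20.3%, so KO cover of the span was close to that of the sequence after it. Cover was listed in WT alone at Serpinb12 and Serpinb3c, in KO alone at Serpinb3a, Serpinb3d, Serpinb3b, Serpinb7 and Serpinb8, and in both at Serpinb13. Serpinb5 (maspin, an epithelial tumour suppressor), Serpinb11, Serpinb2 (plasminogen activator inhibitor 2) and Serpinb10 had none.

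Near the start of the cluster lies Serpinb12, an inhibitor of trypsin-like proteases. In WT 15.6 kb of its region, 58.5%, lay under 2 islands with 443 and 631 reads, at chr1:106933501-106944500 and chr1:106954501-106969000. In KO the nearest island lay 21.9 kb from the region. Serpinb13, a cathepsin inhibitor of the epidermis, had 10.5 kb under a WT island and 4.50 kb under a KO island. These islands met over 0.5 kb only. The most KO cover in the cluster was at Serpinb7 (megsin), 14.0 kb in 2 islands of 229 and 327 reads, with the nearest WT island 80.2 kb away. Serpinb8, an inhibitor of furin, had 6.98 kb in KO and no WT island within 247 kb. These values rest on the KO list as deposited. Once it was reduced to the WT number by reads, both Serpinb7 and Serpinb8 had 0 kb. Among the denser islands Serpinb7 had 5 kb and Serpinb8 0 kb, and WT cover of Serpinb12 was 4.58 kb. In the full lists WT islands over genes were at Serpinb12, Serpinb13 and Serpinb3c, and KO islands reached as far as Serpinb8 at the other end.

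The Serpinb3 genes are mouse counterparts of the squamous cell carcinoma antigens, which inhibit serine proteases and cathepsins. These 4 related genes did not share a pattern. Serpinb3b had 8.65 kb under 2 KO islands (506 reads each), 77.6% of its region and the highest share of any serpin. Among the denser islands, and with the KO list reduced by reads per kb, it had 0 kb. Serpinb3a had 2.30 kb and Serpinb3d 1.98 kb in KO. Serpinb3c had 3.30 kb in WT and no KO island. Distances were short at 2 of these genes, with a WT island 0.662 kb from the Serpinb3d region and a KO island 3.2 kb from that of Serpinb3c. With 10 kb on each side of the gene, WT cover of Serpinb3d exceeded KO cover by 2.32 kb.

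KO islands covered the start of Serpinb3a and of Serpinb3b, and at Serpinb3d the KO island lay just upstream of the start, with no cover inside the gene. The promoter windows of these 3 genes, and that of the uncovered Serpinb3c, are shown because their letters show how alike the genes are where the cover differed. Each window runs from 250 bases before to 50 after the start, is taken from RefSeq (GRCm38.p6, the assembly of mm10) and reads 5′ to 3′ on the strand of the gene. Capitals mark TATAAA, or TTTATA, its reverse complement.
Serpinb3a (chr1:107052254-107052553, minus strand): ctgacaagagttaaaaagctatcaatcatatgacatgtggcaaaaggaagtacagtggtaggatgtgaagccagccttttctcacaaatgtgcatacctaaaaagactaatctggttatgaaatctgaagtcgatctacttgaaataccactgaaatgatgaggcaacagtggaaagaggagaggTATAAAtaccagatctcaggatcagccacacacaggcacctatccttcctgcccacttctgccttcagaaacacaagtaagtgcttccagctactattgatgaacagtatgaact
Serpinb3b (chr1:107161065-107161364, minus strand): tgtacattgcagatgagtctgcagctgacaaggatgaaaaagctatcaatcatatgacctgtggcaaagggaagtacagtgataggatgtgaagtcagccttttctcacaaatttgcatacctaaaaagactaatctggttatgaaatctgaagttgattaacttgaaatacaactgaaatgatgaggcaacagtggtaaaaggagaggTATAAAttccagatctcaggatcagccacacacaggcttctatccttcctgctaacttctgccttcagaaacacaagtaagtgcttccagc
Serpinb3c (chr1:107278322-107278621, minus strand): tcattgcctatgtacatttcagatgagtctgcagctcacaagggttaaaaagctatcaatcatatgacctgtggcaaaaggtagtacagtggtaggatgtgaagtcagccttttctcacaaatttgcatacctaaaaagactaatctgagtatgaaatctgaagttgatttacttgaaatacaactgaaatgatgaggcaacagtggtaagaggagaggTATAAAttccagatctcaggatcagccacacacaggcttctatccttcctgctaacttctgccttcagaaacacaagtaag
Serpinb3d (chr1:107083431-107083730, minus strand): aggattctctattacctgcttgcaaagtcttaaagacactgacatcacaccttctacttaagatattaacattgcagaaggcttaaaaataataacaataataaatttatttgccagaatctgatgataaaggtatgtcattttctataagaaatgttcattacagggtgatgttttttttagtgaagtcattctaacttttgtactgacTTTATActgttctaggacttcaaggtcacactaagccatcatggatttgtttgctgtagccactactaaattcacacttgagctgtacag

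Serpinb3b and Serpinb3c had 93.0% of these bases in common in a global alignment. For Serpinb3a and Serpinb3b the identity was 85.7%, while the lowest of the 6 pairs shared 59.0%. KO islands covered 300 of 300 bases at Serpinb3a and Serpinb3b and 230 at Serpinb3d. At Serpinb3c the window had no cover in either library, although its sequence is the closest to that of Serpinb3b. No base of the 4 windows was covered in WT. How reads that match more than 1 copy were placed is not given in the sources used here, and its part in these differences was not tested.

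Promoter windows were found for 53 of the 62 serpins, with 61 windows in all. Genes without a window used here included Serpinb13, Serping1, Serpina10, Serpina6, Serpina9, Serpina3k, Serpina3m and Serpinb1a. An island covered a promoter at 2 genes in WT, Serpinb12 and Serpinb9c. In KO it did so at 5, Serpinb3a, Serpinb3b, Serpinb3d, Serpinb9d and Serpini2. These are 3.77% and 9.43% of the genes with a window, and over all 16457 genes with a window the shares were 3.76% and 4.22%. The KO genes are few and include the neighbouring Serpinb3a, Serpinb3d and Serpinb3b. KO cover was 0 kb at Serpinb3b and Serpinb9d among the denser islands. With the KO list reduced by reads it was 0 kb at Serpinb3a and Serpinb9d. Promoter counts were not recomputed under other settings. No serpin had a covered promoter in both libraries. With 2 genes in WT and 5 in KO this says little, and the share over all genes was not computed. The windows of Serpinb12 (upstream start) and Serpini2, with the same marks, stand for a promoter covered in WT alone and one covered in KO alone.
Serpinb12 (chr1:106934199-106934498, plus strand): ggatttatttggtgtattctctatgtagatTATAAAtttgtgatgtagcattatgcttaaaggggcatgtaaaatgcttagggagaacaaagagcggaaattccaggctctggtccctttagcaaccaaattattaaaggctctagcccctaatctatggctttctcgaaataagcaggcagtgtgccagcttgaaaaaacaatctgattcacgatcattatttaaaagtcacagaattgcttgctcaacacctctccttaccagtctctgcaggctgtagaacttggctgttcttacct
Serpini2 (chr3:75270029-75270328, minus strand): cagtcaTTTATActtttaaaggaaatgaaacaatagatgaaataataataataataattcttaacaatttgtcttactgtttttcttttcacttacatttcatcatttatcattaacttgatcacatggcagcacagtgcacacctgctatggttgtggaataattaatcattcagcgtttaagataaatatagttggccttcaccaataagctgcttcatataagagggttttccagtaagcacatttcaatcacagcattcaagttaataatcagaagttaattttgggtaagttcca

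The letters TATAAA, on either strand, were in 16 of the 61 serpin windows (26.2%) and in 12.7% of 20085 windows over all autosomal genes. They were in 9 of 13 windows of the chromosome 1 cluster, in 2 of 19 on chromosome 13 and in 4 of 20 of clade a. Serpin windows held a median of 3 CG dinucleotides, against 14 over all windows, and ranged from 0 to 41, the highest being that of Serpine2. These counts describe sequence and were not set against the islands by any test.

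On chromosome 13 the libraries differed in whether islands lay over the clade b genes or between them. Its span from Serpinb1a to Serpinb6a (chr13:32840092-34004794) measured 1165 kb. WT islands covered 5.10% of it and KO islands 11.8%. The 1 Mb before it had 8.46% in WT and 5.15% in KO, and the 1 Mb after it 3.25% and 2.55%. Of the 59.4 kb covered in WT, 37.1 kb (62.4%) fell in serpin gene regions. Of the 138 kb covered in KO, 4.27 kb (3.10%) did. The serpin gene regions made up 34.6% of the span, which also held Nqo2 and Ripk1. Over all autosomes, protein-coding gene regions made up 43.5% of the sequence and took 34.3% of WT island length and 28.2% of KO island length. Without flanks the shares in serpin genes were 52.8% in WT and 0.0333% in KO. With 10 kb on each side they were 89.3% and 32.8%, so part of the KO cover lay within 10 kb of the genes.

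WT islands lay over the Serpinb1 genes, a family that includes an inhibitor of neutrophil elastase and related proteases. Serpinb1a had 5.91 kb (399 reads in the island), Serpinb1c 7.78 kb (724 reads) and Serpinb1b 10.4 kb (425 reads), and none of these regions had a KO island. The WT cover of Serpinb1c and Serpinb1b was 0 kb among the denser islands. The KO list did have an island 1.22 kb outside the Serpinb1c region, under the same WT island. WT cover was also listed at Serpinb6a, an inhibitor of cathepsin G, with 4 kb inside the gene and 187 reads. Serpinb9c had 9 kb under a WT island, 62.2% of its region, and 1.73 kb under a KO island. Its WT island (chr13:33151501-33160500) and KO island (chr13:33136001-33149000) lay 2.5 kb apart without overlap. With 10 kb on each side, KO cover of this gene exceeded WT cover by 6.98 kb.

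KO cover of the other chromosome 13 members was slight. Serpinb9d had 2.05 kb, nearly all upstream of the gene, from an island of 329 reads. Serpinb9g had 0.502 kb at the edge of an island of 22.0 kb and 869 reads. That island opened a run of KO islands between protein-coding genes. Several of them lay over pseudogenes (Gm11387, Gm5194 and Vmn2r-ps94) or a long noncoding RNA gene (Gm6093). From the end of Serpinb9g to the start of Serpinb6e (chr13:33496003-33832344, 336 kb) 9 KO islands covered 96.5 kb, or 28.7%, while 1 WT island covered 4 kb, or 1.19%. This stretch was picked out after its values were seen.

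Serpinb9 itself, the granzyme B inhibitor, had no island in either library. The nearest lay 66.0 kb from its region in WT and 116 kb in KO. Its neighbours Serpinb6b and Serpinb9b were likewise free of cover. From just inside Serpinb9d to the island at Serpinb9g, 304.5 kb (chr13:33193001-33497500) held no island of either list. Nearly all of Serpinb9d lies in it, and all of Serpinb9e, Serpinb9f, Serpinb9h and Serpinb9g. Promoter windows of Serpinb9e and Serpinb9g were 94.7% identical and those of Serpinb9e and Serpinb9f 94.3%. Reads from such copies may not be placed with certainty, and the part of this in the lack of islands was not tested. Serpinb6d, Serpinb6e and Serpinb6c also had none, although islands of both lists lay 0.815 kb (WT) and 2.31 kb (KO) from the Serpinb6c region.

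**Figure D2:**
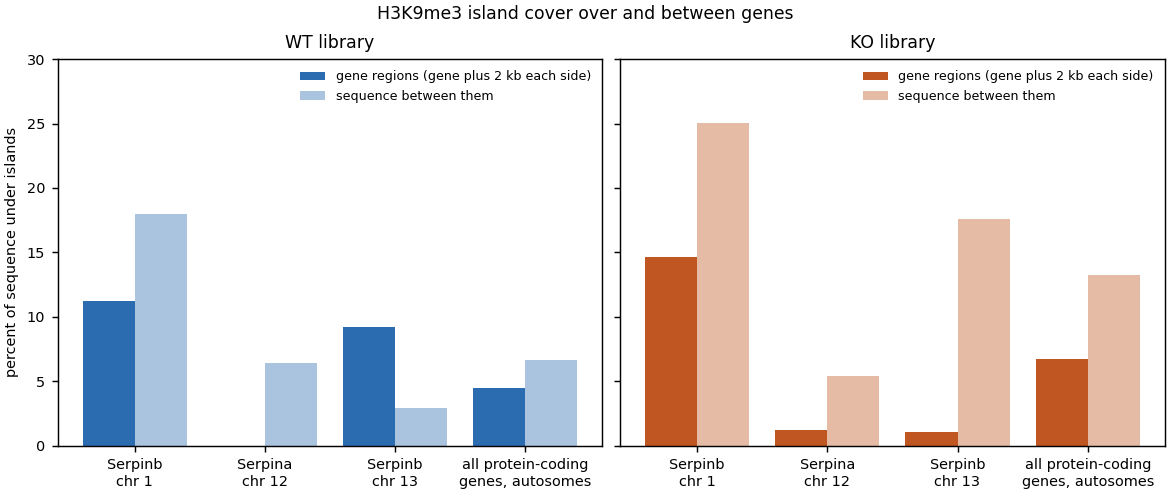
Percent of sequence under islands in WT (left) and KO (right), for serpin gene regions and the rest of each large cluster, and for all autosomal protein-coding gene regions and the rest of the autosomes. In the chromosome 13 cluster the WT library has 9.19% of gene regions and 2.93% of the rest under islands, and the KO library 1.06% and 17.6%.

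The same division was less uneven on chromosome 1. There WT islands covered 11.2% of the serpin gene regions and 18.0% of the sequence between them, and KO islands 14.6% and 25.05%. Over all autosomes gene regions were covered over 4.49% in WT and 6.74% in KO, and the rest over 6.63% and 13.2%. Among the large clusters, higher cover over genes than between them was seen on chromosome 13 in WT alone. With 1 library per genotype, this was not tested.

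The clade a cluster on chromosome 12 was nearly bare over its genes. It runs from Serpina10 to Serpina3n (chr12:103614675-104416334, 802 kb) and holds 23 members and no other protein-coding gene. Serpina10, the inhibitor that acts with protein Z on clotting factor X, was the exception. A KO island of 14.5 kb and 540 reads (chr12:103629501-103644000) covered 3.99 kb of its region, and the nearest WT island was 34.7 kb away. This KO cover was 0 kb among the denser islands. That KO island ended 0.629 kb short of the region of Serpina6, the carrier of corticosteroids.

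Over most of its length the cluster held a long stretch without islands. In WT no island was called over 581 kb (chr12:103580001-104161000), in which 16 members lay with their whole regions. For KO the stretch was 513 kb (chr12:103644001-104157000) with 15 members. The median distance between autosomal islands was 70.5 kb (WT) and 24.5 kb (KO). Of all such distances, 7.16% in WT and 3.25% in KO were at least as long as these. These shares count distances by number, while long ones take up more of the sequence than their number shows. Each stretch was also picked as the distance that overlapped the cluster most. The shares thus do not say how rare such a stretch is, and the share by sequence was not computed. The Serpina1 genes (alpha-1-antitrypsin), Serpina12 (vaspin, an adipokine), Serpina9 (centerin, of germinal centre B cells) and Serpina5 (protein C inhibitor) lie in this stretch. Serpina1a was 271 kb from the nearest WT island and 207 kb from the nearest KO island. Promoter windows of Serpina1a to Serpina1e were 77.3 to 93.0% identical over 10 pairs. Reads of such copies may not be placed with certainty, and the part of this in the lack of islands was not tested.

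Among the Serpina3 genes, relatives of alpha-1-antichymotrypsin, islands lay between genes and not over them. Both lists had an island after Serpina3c (chr12:104161001-104170000 in WT, chr12:104157001-104166500 in KO) and between Serpina3i and Serpina3j (chr12:104279501-104288500 and chr12:104284001-104290000). Each pair overlapped. Another WT island (chr12:104367501-104380500, 490 reads) lay between Serpina3k and Serpina3m with no KO island over it. Serpina3g, an inhibitor of cathepsins in activated T cells, was 35.6 kb from a WT island and 40.1 kb from a KO island. Of the 23 clade a genes, 17 had no island within 10 kb of their region in either library, and with 10 kb on each side 3 were called in WT and 3 in KO. Shares over all genes were not computed at these distances, so whether such counts are usual is not known.

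Over its whole span the cluster was not bare. Islands covered 3.87% in WT and 3.74% in KO. The 1 Mb before it had 2.75% and 6.15%, and the 1 Mb after it 3.2% and 1.85%. Over 2975 consecutive autosomal windows of the same length the median was 4.12% in WT and 7.30% in KO. At most as much cover as in the Serpina span was found in 47.9% of these windows in WT and 38.6% in KO. Among the 765 windows with 10 or more genes it was found in 59.5% and 68.9%. The clade a counts, 0 genes in WT and 1 in KO, thus stood beside cover of the span near the median of all windows in WT and below it in KO. Among the windows with 10 or more genes, the span was not below the median in either library.

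Of the clades c to i, the Serpini pair on chromosome 3 was covered in both libraries, at separate places. Serpini2 (pancpin) had 18.0 kb in WT, the longest cover of any serpin, from an island of 675 reads inside the gene (chr3:75244001-75262000). Its 5.08 kb of KO cover came from an island of 474 reads over the start of the gene (chr3:75267001-75278500), 5 kb away, which also touched Wdr49. The WT island was below the median density of its list, and without such islands KO cover exceeded WT cover by 5.08 kb. Serpini1 (neuroserpin, a neuronal inhibitor of tissue plasminogen activator) had 7 kb under a WT island and 5 kb under a KO island, 18 kb apart, both inside the gene. The KO cover of Serpini1 was 0 kb among the denser islands. Its region of 89.0 kb is the longest of the family.

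The singly placed members had little cover. Serping1 (C1 inhibitor, of complement) had 0.444 kb at the edge of a WT island of 12.5 kb. Serpine3 had 2.24 kb in WT from an island of 299 reads at its end, which also touched Ints6. No island was listed at Serpinc1 (antithrombin), Serpind1 (heparin cofactor II), Serpine2 (protease nexin 1) or Serpinh1 (HSP47, the collagen chaperone). The chromosome 11 pair Serpinf1 (pigment epithelium-derived factor) and Serpinf2 (alpha-2-antiplasmin) lay farthest from any island. Serpinf2 was 1059 kb from the nearest WT island and 1071 kb from the nearest KO island, with 39 other genes in the 1 Mb on each side.

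**Figure D3:**
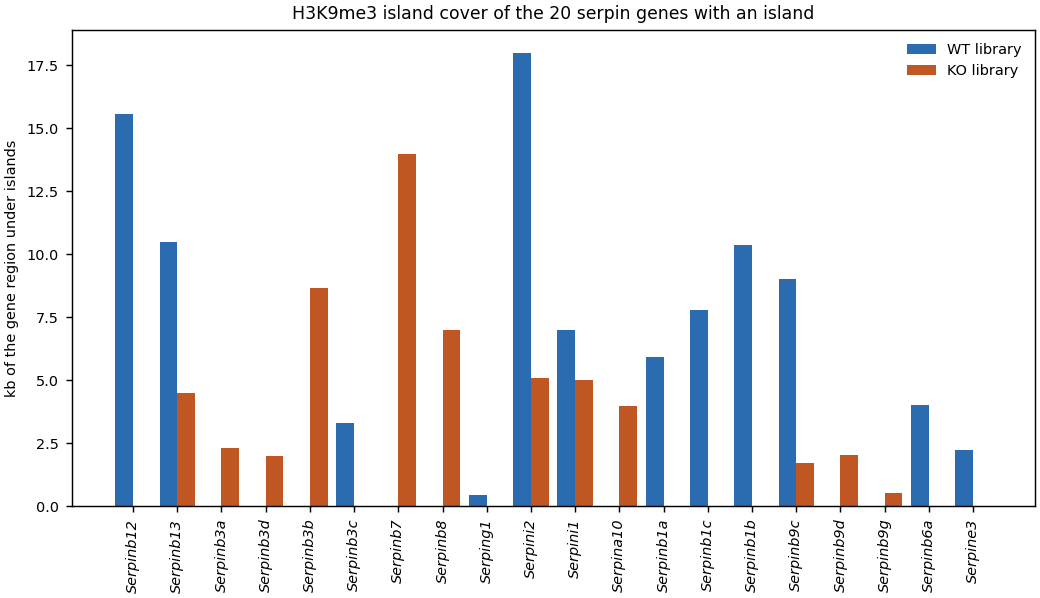
Length of each gene region (gene with 2 kb on each side) under islands, in kb, for the 20 serpin genes with cover in either library, in genome order by chromosome, with WT and KO bars side by side. In 4 genes, Serpinb13, Serpini2, Serpini1 and Serpinb9c, both bars are above 0, and in each of these the WT bar is the longer.

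Both libraries had islands at only 4 serpins, so their overlap rests on few genes. Of the 4 serpins covered in both, the WT and KO islands overlapped within the region at 1, Serpinb13. Over all genes covered in both they overlapped at 1310 of 1651, or 79.3%, a share not matched for region length. Counted by island, a KO island overlapped 3 of the 13 WT islands at serpins, and a WT island 2 of the 14 KO islands. Over all autosomal islands the shares were 48.0% and 24.9%. With 50% of the shorter island shared, the counts were 1 and 1, and the shares over all islands 41.1% and 20.5%. With 10 kb on each side of the gene, where 18 serpins had an island in each library, 7 WT and 7 KO islands were overlapped. Shares over all genes and islands were not computed for that flank. At least 50% of the region was covered at 4 serpins in WT (Serpinb12, Serpinb1b, Serpinb9c and Serpini2) and at 1 in KO (Serpinb3b).

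In density the islands at serpins lay around the middle of their lists. Those in WT held 36.1 to 46.8 reads per kb with a median of 41.7, and the median of all WT islands was 40.4. In KO they held 33.7 to 45.8 with a median of 39.8, and the median of all KO islands was 40.1. In WT the densest was the island in Serpinb6a, with 46.8 reads per kb (95% exact Poisson interval 40.3 to 54.0). In KO the sparsest was the island over the start of Serpinb3b, with 33.7 (30.9 to 36.8), below the 1st percentile of its list, 34.1. These intervals cover counting error only. Of the 13 WT islands 7 lay above the median of their list, and of the 14 KO islands 6 did. Since densities were not scaled to depth, they were not compared between libraries.

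**Figure D4:**
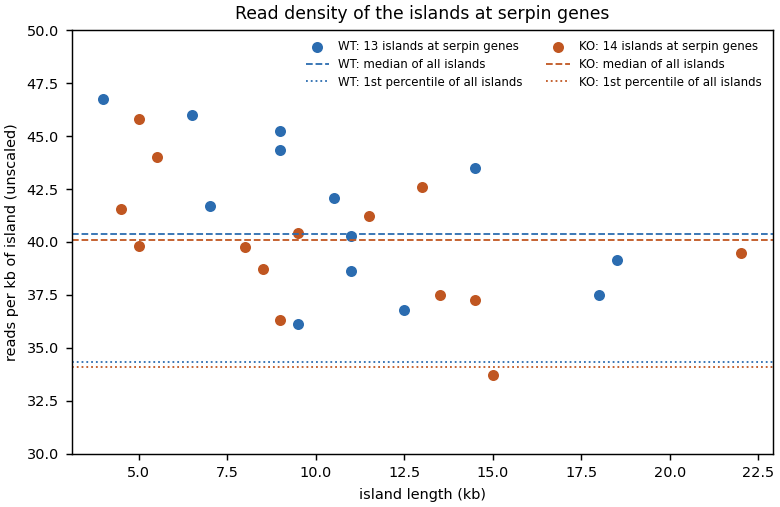
Reads per kb against length in kb for the 13 WT and 14 KO islands at serpin genes, as points, with the median (dashed) and 1st percentile (dotted) of all islands of each list as lines. Points of both libraries lie on either side of their medians, and 1 KO island, at Serpinb3b, lies below the 1st percentile.

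The proteases that serpins inhibit, and inhibitors of other folds, were described in the same way. Of the 10 granzymes, the killing proteases of CD8+ T cells, 0 had an island in either library, and neither had any of 3 neutrophil proteases. Cathepsins, mostly lysosomal proteases, had islands at 2 of 23 genes in each library, Ctsc (9 kb) and Ctsll3 (7.84 kb) in WT and Cts6 (6.35 kb) and Cts3 (5.17 kb) in KO. Kallikreins, a family of secreted serine proteases, had 1 of 27 in each, Klk13 (12.5 kb) in WT and Klk1b21 (5.50 kb) in KO. Of 10 autosomal clotting and fibrinolysis genes, 1 had an island in WT, Plg (plasminogen, 11.5 kb), and 0 in KO.

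Among other inhibitors, Kazal-type genes had islands at 4 of 13 in WT and 5 in KO. The longest cover was 12 kb at Spink10 and at Spink13, which overlap, in WT, and 14.0 kb at Spink6 and 7.04 kb at Spink12 in KO. WAP-type inhibitors had 3 of 19 in WT, led by Wfdc11 (10.6 kb) and Wfdc21 (4 kb), and 1 in KO, Wfdc16 (0.8 kb). Cystatins and stefins, inhibitors of cathepsins, had 3 of 28 in WT, led by Cst8 (10.8 kb) and Csta1 (9.55 kb), and 4 in KO, led by Csta2 (13.5 kb) and Cstdc1 (6.94 kb). The shares over all genes were 14.8% and 14.5%, and 7.73% and 5.90% for regions of 10 to 30 kb. The lists are short, and many of their counts moved with the setting. The 5 Kazal-type genes of KO became 3 among the denser islands, with islands of at least 2 kb, and with the KO list reduced either way.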

How the data were processed

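The authors' deposited files were 1 island list per H3K9me3 library, with a read count per island on a grid of 500 bp. Bowtie2, SICER 1.1 and the build mm10 come from the submitters' processing notes. How the window, gap and threshold were set, how duplicates were handled and whether the input was used is not given in the sources used here. Read counts in the deposited lists carry no scaling, per their values, and rise with the length of the island (rho 0.973 in WT and 0.980 in KO). The input libraries were not analysed here.

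Positions were converted to count from 1. Genes came from RefSeq GRCm38.p6, leaving out autosomal genes on scaffolds, and 2 kb was added on each side. A cluster joined members with gaps of at most 500 kb. Gene strand was taken from the promoter windows. Promoter windows were aligned globally with Biopython 1.88, and identity is matches per 300 bases. The interval functions were tested on simulated islands.

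All serpins with an island are named, 1 member without one is not reported here by name, members without one beside their cluster, and up to 2 genes per library from each of 8 protease and inhibitor lists. The members and lists were chosen with earlier results of these data known.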

Additional observations from a re-analysis of the deposited data

How the results depend on the processing

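No paired analysis was possible because there is 1 library for each genotype. Of the serpin counts and shares recomputed, 60 moved by over 1.5 times and 132 did not. Of these none moved with islands of at least 2 kb, with at least 1 kb covered, or with clusters joined at 250 kb (which splits the Serpini pair) or 1 Mb. The 2 kb limit could not change which serpins had an island, since the shortest islands there were 4 kb in WT and 4.5 kb in KO. Joining at 1 Mb gave the same 5 clusters of 55 genes. The 132 also hold WT counts of genes under settings that alter the KO list alone, and those could not move. Overlap of islands under other lists and flanks, shares of the chromosome 13 cover, and all settings for the protease, inhibitor and marker lists were added after the data were seen. Of 144 counts for those lists, 34 moved. Kazal-type genes in KO fell from 5 to 3 with islands of at least 2 kb, and WAP-type inhibitors in KO from 1 to 0 with at least 1 kb covered.

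Among the denser islands, with more reads per kb than their list's median, serpins with an island were 7 in WT and 6 in KO, with 5 in WT alone, 4 in KO alone and 2 in both. By clade this left 0 of clade a in KO, 5 and 5 of clade b in WT and KO, and 2 and 1 of clades c to i. By cluster it left 1 and 1 of the Serpini pair and 3 and 1 on chromosome 13, and 1 WT island was overlapped. With the KO list reduced to the WT number by reads, KO counts were 6 in all, 4 in KO alone, 2 in both, 4 in clade b, 1 in clades c to i, 2 on chromosome 1 and 1 in the Serpini pair, with 0 WT and 1 KO island overlapped. Reduced by reads per kb, they were 6 in all, 3 in KO alone, 0 in clade a, 5 in clade b, 1 in clades c to i, 1 in the Serpini pair and 1 on chromosome 13. Both reductions drop KO islands only, so KO counts could not rise.

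With at least 50% of the region covered, counts were 4 in WT and 1 in KO, with 4 in WT alone, 1 in KO alone and 0 in both. That was 0 of clade a in KO, 3 and 1 of clade b, 1 and 0 of clades c to i, 1 and 1 on chromosome 1, 1 and 0 of the Serpini pair and 2 and 0 on chromosome 13. With 10 kb on each side, 9 serpins had islands in both, clade a had 3 and 3, chromosome 1 had 5 in WT, chromosome 13 had 5 in KO, and 7 WT and 7 KO islands were overlapped. Without flanks, chromosome 13 had 1 in KO and 1 KO island was overlapped. When 50% of the shorter island had to be shared, 1 WT and 1 KO island were. The share of KO cover of the chromosome 13 cluster that lay in serpin regions was 0.0333% without flanks and 32.8% with 10 kb.

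Of the 12 serpins with cover in each library, cover fell to 0 at 5 in WT and 6 in KO among the denser islands, at 6 in KO with its list reduced by reads (Serpinb13, Serpinb3a, Serpinb7, Serpinb8, Serpini1 and Serpinb9d), and at 6 with it reduced by reads per kb (Serpinb3b, Serpinb8, Serpini1, Serpina10, Serpinb9d and Serpinb9g). Among the denser islands it was 0 in WT at Serpinb3c, Serping1, Serpini2, Serpinb1c and Serpinb1b, and in KO at the same 6 as with reads per kb.

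Cover in KO minus WT changed sign at 3 genes, to -2.32 kb at Serpinb3d and 6.98 kb at Serpinb9c with 10 kb on each side, and to 5.08 kb at Serpini2 among the denser islands. The cause was not tested.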
